A study of Mus musculus with 4 samples.

Results

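SINE elements are short retrotransposons, and 678 of the 16134 narrow Bmal1 peaks called in developing mouse retina were annotated to one. A narrow peak is a window of fixed width around a local excess of ChIP tags over input. A peak was counted as a SINE peak when its annotation was intergenic or intronic and its detailed annotation named a repeat of the SINE class. The 678 entries come from 6 lists, 4 of single libraries with 547 SINE peaks and 2 of libraries pooled by age with 131. Since the pooled lists reuse the reads of the single libraries, the entries stand for 653 distinct places in the genome.

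Bmal1-bound chromatin was pulled down with an antibody (Abcam, by the sample labels) from retina of mice at postnatal day 5 (P5) or postnatal day 3 (P3), taken at zeitgeber time 4, that is 4 hours after lights on. P5 had the libraries numbered 2 and 3 and P3 those numbered 4 and 5, and 1 input library served both ages. The labels give neither the strain nor the number of animals behind a library, and the study describes its wild-type mice in general as derived from C57BL/6J in one place and as BL6129/6N, beside mixed strains, in another. The replicates may share animals and the spread between them may be technical. The study set P5 against P3 to compare where Bmal1 sits after and before blood vessels spread over the retina.

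Bmal1 is a bHLH-PAS transcription factor that pairs with CLOCK and binds the E-box, whose best known form is CACGTG. Mouse SINEs fall into families of different origin. B1 elements, filed under the name Alu, derive from 7SL RNA, the RNA of the signal recognition particle. B2 elements, with the older B3 and B3A, derive from a tRNA, B4 elements join a tRNA-derived head to a B1-like part, and MIR elements are much older and are shared by mammals. SINEs are transcribed by RNA polymerase III, lie more densely near genes than LINE elements do, and carry short motifs that are copied with each insertion.

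Among the members, B1 peaks made up 211, B4 peaks 193, B2 peaks 157 and MIR peaks 98. The remaining entries were 16 ID peaks, 2 of the tRNA group and 1 Deu element. The sequences below, from GRCm38 (mm10), are shown because a part of the E-boxes in B1 and B2 peaks came with shared surrounding bases. The E-box is in capitals and each window is read 5′ to 3′ on the strand named.
B1_Mur3 near Fcho2, P3 replicate 4, chr13:98804430-98804455, plus strand: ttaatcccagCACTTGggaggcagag
B1_Mus1 near Blvra, P3 pooled, chr2:127079909-127079934, minus strand: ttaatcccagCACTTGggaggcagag
B1_Mus1 near Thy1, P3 replicate 4, chr9:44002774-44002799, plus strand: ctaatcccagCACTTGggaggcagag
B1_Mus1 near Rfpl4, P5 replicate 3, chr7:5107853-5107878, minus strand: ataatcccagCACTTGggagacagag
B1F1 near Pnkd, P3 replicate 4, chr1:74346053-74346078, plus strand: gtgatcccagCACTTGggaggcagat
B2_Mm1a near Spred1, P3 replicate 4, chr2:117015252-117015277, plus strand: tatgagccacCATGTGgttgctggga
B2_Mm2 near Sirt1, P3 replicate 4, chr10:63325549-63325574, plus strand: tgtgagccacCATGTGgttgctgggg
B2_Mm2 near Ldhc, P3 replicate 4, chr7:46865954-46865979, minus strand: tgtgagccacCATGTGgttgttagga
B2_Mm1t near Bhmt, P3 pooled, chr13:93645457-93645482, plus strand: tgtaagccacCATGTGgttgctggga

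The B1 windows near Fcho2 and Blvra are identical over all 26 bases, although they lie on different chromosomes and came from different lists. These windows were chosen after their sequences were seen, from those with no difference from the commonest 4 bases on either side. In the 211 B1 peaks, CACTTG with 4 bases on either side could be read 36 times, and 16 of these (44.4%) differed from the commonest form, with CCAG before it and GGAG after it, at no more than 2 of the flanking bases. In the other SINE peaks 6 of 50 such matches did (12%), in the peaks outside SINEs 12 of 1241 (0.967%), and in the whole genome 117245 of 1585566 (7.39%). For CATGTG in B2 peaks, whose commonest neighbours were CCAC before and GTTG after, 11 of 69 matches were as close (15.9%), against 0 of 89 in the other SINE peaks, 8 of 1862 outside SINEs (0.43%) and 105202 of 2516466 in the genome (4.18%). Both commonest forms were taken from these same B1 and B2 peaks, so part of each family's higher share follows from that choice. Matches were counted by list entry, so the B1 match near Ank counts in both P3 replicate 4 and P3 pooled. The 300-base mouse 7S RNA itself (Rn7s1 of GENCODE) holds no flexible E-box. Compared base by base without gaps, its stretch most like the B1 surroundings (cagctactcgggag, from base 31) differs from them at 5 of 14 positions. With a gap after cagc the bases that follow match more closely, and such an alignment was not scored here.

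The annotation names a repeat at each peak's centre, so it was checked against the sequence. A 16-base word that recurs at least 100 times in the genome was found in 91.9% of B1 peaks, 96.2% of B2 peaks, 82.4% of B4 peaks and 31.6% of MIR peaks. Of the intergenic and intronic peaks with no repeat named, 38.7% held one, so by this measure B1, B2 and B4 stood above these peaks and the older MIR peaks did not. Peaks in LINE elements held one in 73.0% and those in LTR elements in 63.1%, so such a word does not tell SINEs from other repeats. By alignment, 21 of 211 B1 peaks matched 7S RNA (9.95%, 95% interval 6.27 to 14.8%), at a median identity of 81.1%, against 15 of 15456 peaks outside SINEs (0.097%). A tRNA gene was matched by 11 of 157 B2 peaks (7.01%) and 20 of the 15456 others (0.129%). Intervals for shares are exact (Clopper-Pearson) at 95% throughout and cover counting error only.

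The libraries held between 55200000 and 68300000 tags, calculated from the steps of the score, and their narrow lists differed far more, from 200 peaks in P5 replicate 2 to 9543 in P3 replicate 4. The study's reporting form gives a lower sequencing depth, with no unit or library named, and the difference was not examined. P3 replicate 4 alone gave 448 of the 547 single-library SINE peaks, its lowest peaks rest on 12 tags where those of the other 3 libraries rest on 17, and the peak widths are 165, 171, 145 and 171 bases in P5 replicates 2 and 3 and P3 replicates 4 and 5. Results over all entries together are therefore mostly results of P3 replicate 4, and the comparisons tested below were made library by library. Shares given over all entries or over the 6 lists were not. They mix peak widths and count the 25 places found in more than 1 list more than once. P5 replicate 2 gave 6 SINE peaks, so 1 peak moves its shares by 16.7 percentage points.

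**Figure D1:**
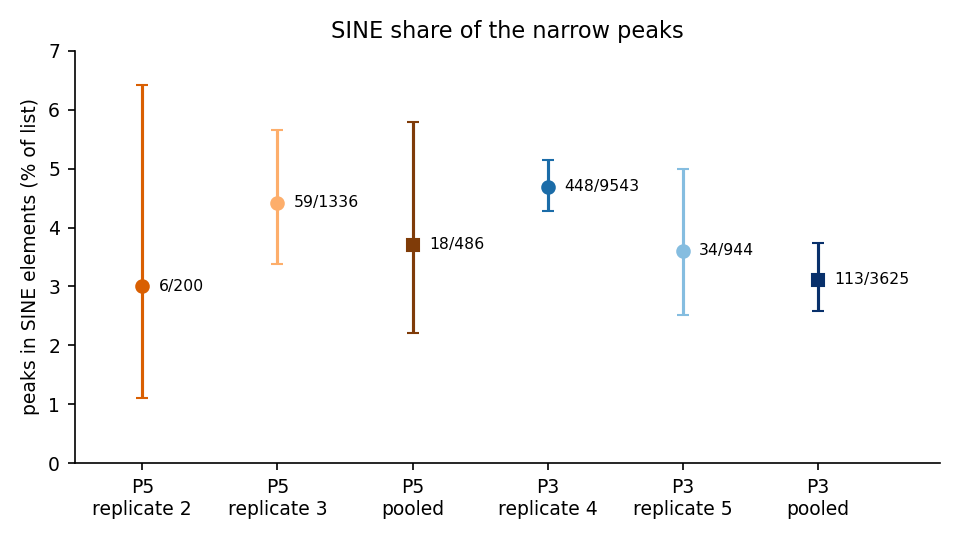
Share of the narrow peaks of each list that were annotated to a SINE element, in percent, with 95% exact binomial intervals and the counts beside each point. Circles are single libraries and squares the pooled lists, and the shares of the 4 libraries lie between 3 and 4.69% with overlapping intervals.

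SINE elements took a like small share of the peaks at both ages. At P5 the share was 3.0% (6 of 200) in replicate 2 and 4.42% (59 of 1336, interval 3.38 to 5.66%) in replicate 3, and at P3 it was 4.69% (448 of 9543, 4.28 to 5.14%) in replicate 4 and 3.6% (34 of 944, 2.51 to 5.0%) in replicate 5. The libraries of the ages overlapped. The mean was 3.71 ± 1.0% at P5 and 4.15 ± 0.773% at P3 (SD, n = 2 each), a difference of -0.44 percentage points with p = 0.667 in a two-sided exact permutation test over the 4 libraries. With 2 libraries against 2 this exact permutation test cannot go below p = 0.333, so it could call no difference between the ages, whatever its size. The sign turned without P5 replicate 2 or P3 replicate 4 and in the pooled lists, where the share was 3.7% at P5 (18 of 486) and 3.12% at P3 (113 of 3625). Broad peaks gave 4.29 and 4.35% at P5, against 4.89 and 3.88% at P3.

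**Figure D2:**
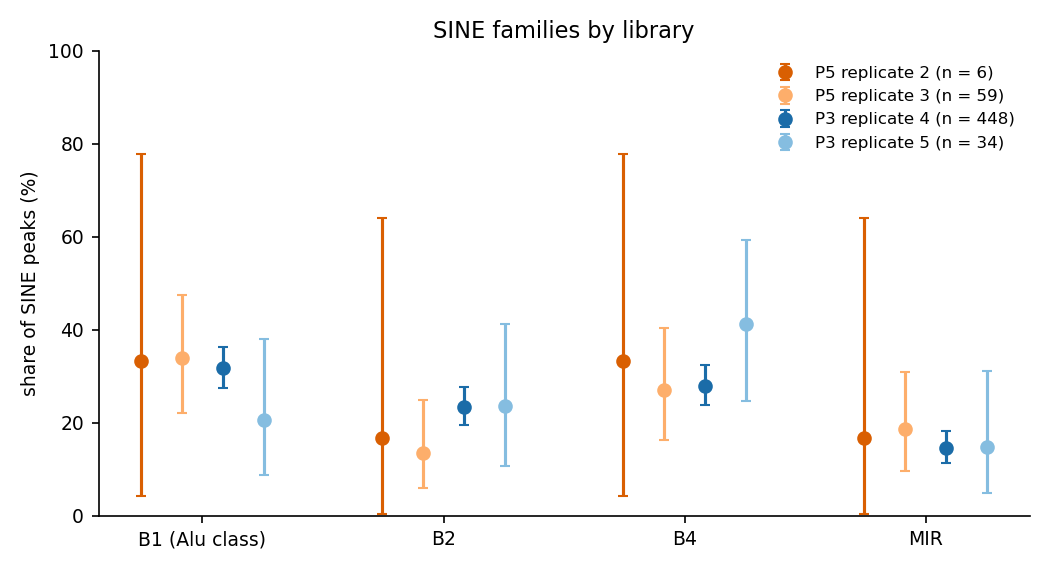
Share of the SINE peaks of each library that belong to the B1, B2, B4 and MIR families, in percent, with 95% exact binomial intervals. The B2 points of the P5 libraries, 16.7 and 13.6%, lie below those of the P3 libraries, 23.4 and 23.5%, and all intervals overlap.

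The B1, B2 and MIR shares of the P5 libraries did not overlap those of the P3 libraries, and the B4 shares did. Full separation of 2 libraries from 2 has p = 0.333 in the exact permutation test. Each of these families had only 1 or 2 peaks in P5 replicate 2. B2 elements were 1 of 6 SINE peaks (16.7%) and 8 of 59 (13.6%, 6.04 to 25.0%) in P5 replicates 2 and 3, against 105 of 448 (23.4%, 19.6 to 27.6%) and 8 of 34 (23.5%, 10.7 to 41.2%) in P3 replicates 4 and 5. The difference was -8.37 percentage points (p = 0.333, the smallest the exact permutation test allows). The intervals of the single libraries did overlap, and among peaks in the upper 50% of the scores of their own list the difference was 7.79 points, the other way. B1 peaks were 2 of 6 (33.3%) and 20 of 59 (33.9%) at P5, against 142 of 448 (31.7%) and 7 of 34 (20.6%) at P3, a difference of 7.47 points (p = 0.333, exact permutation test). It too changed sign among the higher-scoring peaks (-5.46 points) and was near 0 among peaks whose sequence occurs once in the genome (-0.12 points). MIR shares were 16.7 and 18.6% at P5 and 14.5 and 14.7% at P3, and the difference of 3.05 points (p = 0.333, exact permutation test) was -7.51 among the higher-scoring peaks. B4 shares were 33.3 and 27.1% at P5 and 27.9 and 41.2% at P3. The P5 pooled list held no MIR element among its 18 SINE peaks, with an exact interval up to 18.5%, and the P3 pooled list held 16 of 113.

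B3 and B3A, which are older than the B2_Mm elements, made up 128 of the 157 B2 peaks (81.5%). Among single libraries they were the 1 B2 peak of P5 replicate 2, all 8 of P5 replicate 3, 86 of 105 of P3 replicate 4 and 7 of 8 of P3 replicate 5. In the B4 family B4A was commonest with 62 peaks, before ID_B1 with 55, B4 with 39 and RSINE1 with 37. B1 peaks were spread over 15 subfamilies, of which B1F had most (28 peaks). MIRb (41) and MIR (32) led the MIR peaks. The subfamilies counted here as young (B1_Mm, B1_Mus1, B1_Mus2, B2_Mm1a, B2_Mm1t and B2_Mm2) gave 62 of 678 entries, or 9.14%. By library they were 1 of 6 and 4 of 59 at P5 (6.78%, 1.88 to 16.5%), against 38 of 448 (8.48%, 6.07 to 11.5%) and 2 of 34 (5.88%, 0.72 to 19.7%) at P3. These intervals overlapped, and the counts are too few to tell whether the ages differ. The pooled lists had 2 of 18 (11.1%) at P5 and 15 of 113 (13.3%) at P3. The share of these subfamilies in the genome was not analysed here.

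Almost all SINE peaks had sequence that occurs once in the genome. Every stretch of 31 bases in a peak was counted in the reference, and a peak was called single-copy when the median count was 1. Of the SINE peaks 666 of 678 were single-copy (98.2%), as were 15180 of 15456 others (98.2%), 2498 of 2652 in LINE elements (94.2%) and 10105 of 10146 with no repeat named (99.6%). Single-copy peaks were 54 of the 62 entries of young subfamilies (87.1%) and 612 of the 616 others (99.4%). Only 2 members had a median above 10 copies, both B1_Mus1 elements at P5, near Slc24a2 in replicate 2 and near Rfpl4 in replicate 3. Whether reads that map to several places were kept is not given in the sources used here, and the part of read mapping in these counts was not tested.

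**Figure D3:**
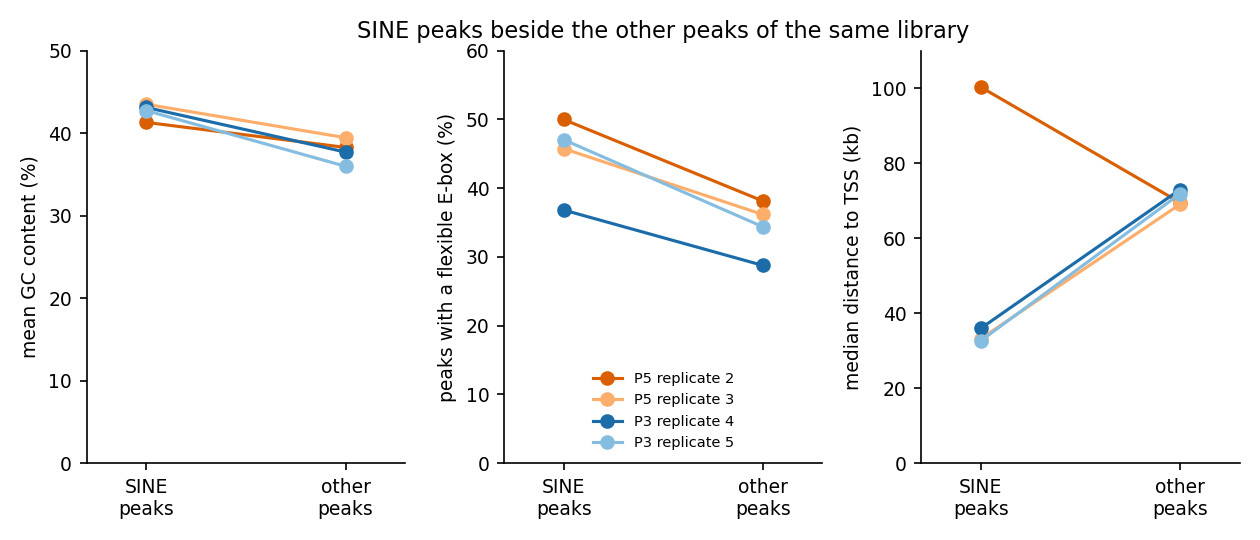
SINE peaks (left of each panel) beside all other peaks of the same library (right), as mean GC content, share with a flexible E-box and median distance to the nearest TSS. GC content and E-box share are higher in the SINE peaks of all 4 libraries, and the distance is shorter in 3 of them and longer in P5 replicate 2.

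SINE peaks were richer in G and C than the other peaks of their library. Their mean GC content was 41.3 and 43.5% in P5 replicates 2 and 3 and 43.1 and 42.7% in P3 replicates 4 and 5, where the other peaks had 38.3, 39.5, 37.7 and 36.0% in the same order. The difference was 4.81 ± 1.62 percentage points (SD of 4 libraries), positive in 4 of 4, with p = 0.125 in a two-sided exact sign-flip permutation test, the smallest that 4 libraries allow. B4 (44.9 ± 5.38%, SD over 193 peaks) and B1 peaks (43.9 ± 5.39%, 211 peaks) were highest, B2 peaks had 42.2 ± 6.47% and MIR peaks 38.8 ± 6.88%, and the chromosomes as a whole have 41.7%. Peaks in LTR elements came close, so that in P5 replicate 2 the LTR peaks (42.1%) were above the SINE peaks (41.3%).

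The E-box was searched on both strands in its flexible form, which takes in CACGTG and the variants CATGTG and CACTTG as well as a further variant, CATTTG. It was present in 3 of 6 SINE peaks (50%) of P5 replicate 2, 27 of 59 (45.8%, 32.7 to 59.2%) of P5 replicate 3, 165 of 448 (36.8%, 32.4 to 41.5%) of P3 replicate 4 and 16 of 34 (47.1%, 29.8 to 64.9%) of P3 replicate 5. Over all peaks of these lists the share was 38.5, 36.6, 29.2 and 34.9% in the same order, and genome windows of the same widths hold one in 32.9, 33.9, 29.5 and 33.9%. SINE peaks thus had it more often than the other peaks of their library in 4 of 4 libraries, by 10.5 ± 2.11 percentage points (p = 0.125, two-sided exact sign-flip permutation test, the smallest possible). The share was also above that of LINE peaks, of LTR peaks and of peaks with no repeat named in each of the 4 libraries. In the pooled lists 6 of 18 SINE peaks (33.3%) at P5 and 48 of 113 (42.5%) at P3 held it, against 31.7 and 33.1% of all peaks, so the surplus was small at P5. LINE peaks of the P5 pooled list held it more often than its SINE peaks, in 44 of 89 (49.4%). Between the ages the share differed by 5.94 points (p = 0.667, exact permutation test) and the libraries overlapped.

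**Figure D4:**
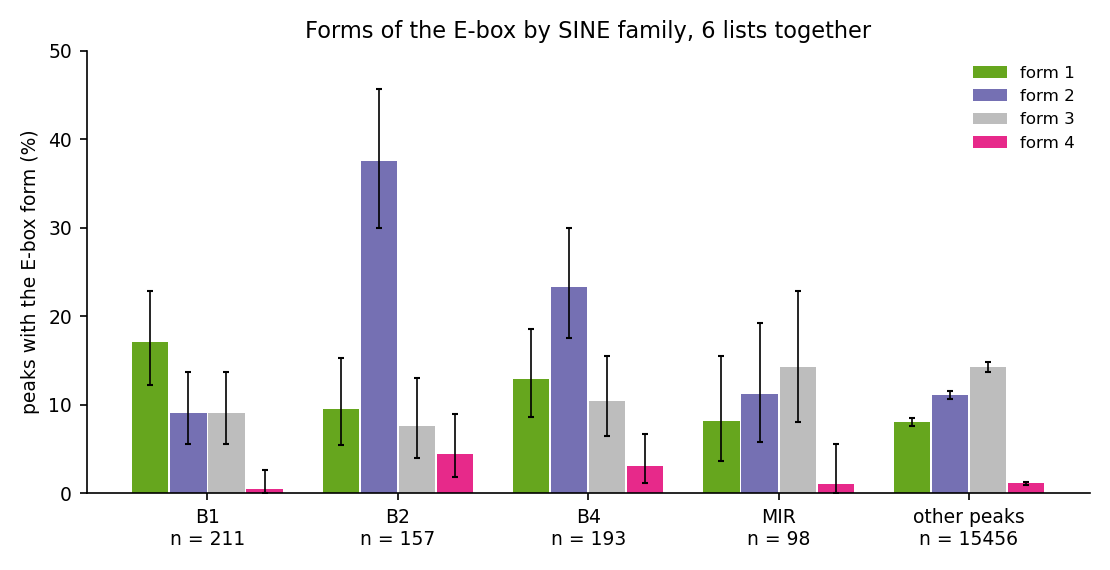
Percentage of the peaks of each SINE family, and of all other peaks, that hold each form of the E-box, over the 6 lists together, with 95% exact binomial intervals. Form 1 is CACTTG, form 2 CATGTG, form 3 CATTTG and form 4 CACGTG, and form 2 stands out in B2 peaks at 37.6% beside 11.1% of the other peaks.

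The share with an E-box, and its commonest form, varied from family to family. B2 peaks had it in 80 of 157 (51.0%), B4 peaks in 81 of 193 (42.0%), B1 peaks in 67 of 211 (31.8%) and MIR peaks in 31 of 98 (31.6%), beside 30.8% of peaks outside SINEs. CATGTG accounted for the high share of B2, in 59 of 157 peaks (37.6%, 30.0 to 45.7%), and was also frequent in B4 (45 of 193, 23.3%). Peaks outside SINEs held it in 11.1%. The pattern was present in each library, with CATGTG in 1 of 1 and 4 of 8 B2 peaks at P5 and in 37 of 105 (35.2%) and 4 of 8 at P3, where the other peaks had it in 13.4 and 13.9% at P5 and 10.2 and 11.8% at P3. Neither B2 peak of the P5 pooled list held CATGTG, against 13 of 33 at P3. In 3 libraries with more than 1 B2 peak, B2 peaks had a flexible E-box in 62.5, 48.6 and 62.5% (P5 replicate 3, P3 replicates 4 and 5) and the other SINE peaks in 43.1, 33.2 and 42.3%. This difference of 18.3 ± 2.6 percentage points was found after the data were seen (p = 0.25, exact sign-flip permutation test, the smallest that 3 libraries allow).

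The shares of single subfamilies had wide intervals, which overlapped for those set side by side here within a family. Between families some did not, as for CATGTG in B3 peaks and in ID_B1 peaks (5 of 55, 9.09%, 3.02 to 20.0%). No difference between subfamilies was tested. CATGTG was in 36 of 80 B3 peaks (45.0%, 33.8 to 56.5%), 9 of 24 B2_Mm2 peaks (37.5%) and 11 of 48 B3A peaks (22.9%, interval up to 37.3%). Within B4 a flexible E-box was in 22 of 37 RSINE1 peaks (59.5%, 42.1 to 75.2%) and in 12 of 39 B4 peaks proper (30.8%, interval up to 47.6%). In B1 peaks CACTTG was the commonest form, in 36 of 211 (17.1%, 12.2 to 22.8%), beside 8.05% of the peaks outside SINEs. CATTTG was in 9.59% of SINE peaks and in 14.3% of the others. A B box of the RNA polymerase III promoter (GTTCGANNC on either strand) was in 5 of 678 SINE peaks (0.737%), against 0.124% of all peaks and 0.558 to 0.693% of genome windows of these widths. Within a peak 175 of 337 matches in SINE peaks (51.9%) and 2937 of 5858 in the others (50.1%) lay in the middle 50% of the window. By family this share ran from 40.5% in MIR to 56.1% in B2 peaks. A finer division of the window was not examined.

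The exact form CACGTG was in 15 of 678 SINE peaks (2.21%, 1.24 to 3.62%), where 1.16% of all peaks had it and 1.33 to 1.64% of genome windows do. Of these 7 were B2, 6 B4, 1 B1 and 1 MIR. The share was above that of the other peaks in 4 of 4 libraries, though it rests on 1 SINE peak each in P5 replicates 2 and 3 and P3 replicate 5, and the P5 pooled list had 0 of 18. By score the first were Gm11413, Cspp1, which encodes a centrosome and spindle pole protein, Caln1, a calcium-binding protein of the brain, and Wdr83, a WD repeat protein. Their peaks came from P3 replicate 4 and had scores of 4.89, 4.53, 4.17 and 3.81 tags per 10000000. The score is the number of tags in the peak per 10000000 tags, so these peaks rest on 27, 25, 23 and 21 tags. The sequences of the RSINE1 peak of Gm11413, with 3 matches, and of the B3 peak of Wdr83, with 2, are printed whole on the plus strand with all matches in capitals.
Gm11413, RSINE1, chr4:83377159-83377303: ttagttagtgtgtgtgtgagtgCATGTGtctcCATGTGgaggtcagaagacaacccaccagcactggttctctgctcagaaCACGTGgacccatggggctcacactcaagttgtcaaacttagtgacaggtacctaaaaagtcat
Wdr83, B3, chr8:85078903-85079047: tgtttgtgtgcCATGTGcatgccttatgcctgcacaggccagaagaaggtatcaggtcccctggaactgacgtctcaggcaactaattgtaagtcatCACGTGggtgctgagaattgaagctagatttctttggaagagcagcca

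The Wdr83 peak lies in intron 5 of 8, 1.77 kb from the TSS, and that of Gm11413 is intergenic, 13.4 kb from the TSS. The Cspp1 peak is in intron 3 of 29 and the Caln1 peak in intron 4 of 6, more than 200 kb inside the gene.

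**Figure D5:**
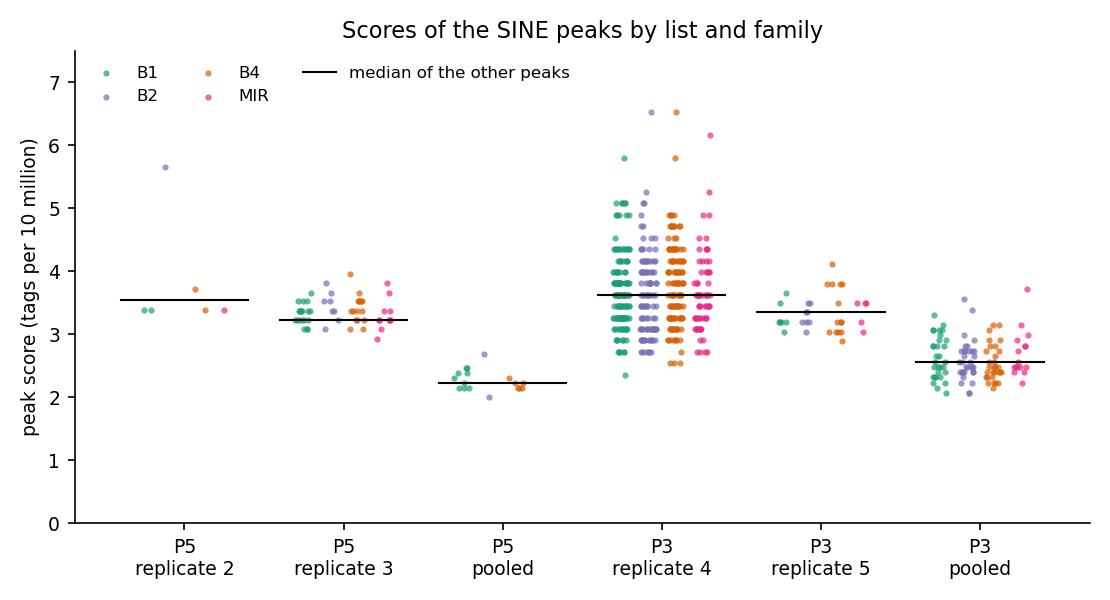
Score of each B1, B2, B4 and MIR peak, in tags per 10000000, by list, with the median of all other peaks of the list as a line. The families share one range in each list, and scores are comparable within a list but not between lists that were called separately.

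SINE peaks were of ordinary height. Their median score was 3.39 and 3.37 in P5 replicates 2 and 3 and 3.63 and 3.2 in P3 replicates 4 and 5, where the other peaks had 3.55, 3.22, 3.63 and 3.35. The mean difference was -0.04 ± 0.146 tags per 10000000 (p = 0.75, exact sign-flip permutation test), and it was positive in 1 library and negative in 2. Their medians correspond to 21, 23, 20 and 21 tags. The highest peaks of the lists were not SINE peaks, as 3, 29, 7 and 23 peaks of these libraries scored above the highest SINE peak.

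At P5 the highest SINE peaks of the pooled list were a B2_Mm2 element 3.22 kb from the TSS of Dnmt3aos, the antisense transcript of the DNA methyltransferase gene Dnmt3a (score 2.69, 35 tags, counting interval 24.4 to 48.7), and an LFSINE_Vert element far from Olfm4 (2.53, 33 tags). Btrc, the substrate-binding subunit of a ubiquitin ligase that acts on PER and other proteins, had a B1_Mur1 peak in intron 1 of 13 (2.46, 32 tags), and a B1_Mus1 peak in an intron near Taf4b, a subunit of a general transcription factor, had the same score. In the P3 pooled list the highest were a MIRb peak 298 kb from Med30, a subunit of the Mediator complex (3.72, 45 tags, 32.8 to 60.2), and a B3A peak 9.69 kb upstream of Scn2a1, a voltage-gated sodium channel of neurons (3.56, 43 tags). Klf6, a zinc finger transcription factor, followed with a B3A peak (3.39, 41 tags), Chac1, an enzyme that degrades glutathione, with a B1_Mus1 peak 8.4 kb upstream (3.31, 40 tags), and Cdh11, a cell adhesion cadherin, with a B4 peak 441 kb from its TSS (3.14, 38 tags). Peaks near Prss55, Tbc1d2b, Ndfip1 and Ropn1 had the same score of 3.14. The peaks printed were picked, after their values were seen, from the 3 highest of their family in the pooled list of their age, and are given on the plus strand with any E-box in capitals.
Dnmt3aos, B2_Mm2, P5 pooled, chr12:3865395-3865533: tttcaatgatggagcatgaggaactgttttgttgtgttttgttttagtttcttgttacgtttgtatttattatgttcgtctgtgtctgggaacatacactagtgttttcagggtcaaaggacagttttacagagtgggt
Btrc, B1_Mur1, P5 pooled, chr19:45389303-45389441: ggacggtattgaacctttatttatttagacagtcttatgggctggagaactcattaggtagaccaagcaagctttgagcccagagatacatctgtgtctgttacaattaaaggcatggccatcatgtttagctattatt
1700121N20Rik, B4A, P5 pooled, chr12:106435331-106435469: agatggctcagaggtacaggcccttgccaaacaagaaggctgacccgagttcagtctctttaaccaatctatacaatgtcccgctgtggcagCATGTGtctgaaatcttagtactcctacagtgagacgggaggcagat
Med30, MIRb, P3 pooled, chr15:53010816-53010980: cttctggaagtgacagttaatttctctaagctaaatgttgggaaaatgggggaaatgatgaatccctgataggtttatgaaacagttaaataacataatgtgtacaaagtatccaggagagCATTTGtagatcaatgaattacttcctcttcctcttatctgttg
Scn2a1, B3A, P3 pooled, chr2:65660675-65660839: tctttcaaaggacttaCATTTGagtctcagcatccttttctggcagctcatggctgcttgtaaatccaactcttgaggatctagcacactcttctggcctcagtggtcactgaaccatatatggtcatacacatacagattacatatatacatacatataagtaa
Chac1, B1_Mus1, P3 pooled, chr2:119342758-119342922: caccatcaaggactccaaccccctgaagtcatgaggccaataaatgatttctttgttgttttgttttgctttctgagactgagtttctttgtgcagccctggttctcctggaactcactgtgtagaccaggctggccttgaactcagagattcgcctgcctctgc
Cdh11, B4, P3 pooled, chr8:102343636-102343800: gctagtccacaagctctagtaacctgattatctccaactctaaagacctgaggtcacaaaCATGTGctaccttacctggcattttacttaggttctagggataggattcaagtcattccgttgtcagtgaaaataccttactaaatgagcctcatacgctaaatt

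In the single libraries the highest SINE peaks were the B3 peak near 1700026F02Rik in P5 replicate 2 (5.65), the B4A peak near 1700121N20Rik and the LFSINE_Vert peak near Olfm4 in P5 replicate 3 (3.96 each), the Klf6 B3A and Tmem87b B4A peaks in P3 replicate 4 (6.53 each) and an ID_B1 peak near Msl3l2 in P3 replicate 5 (4.11).

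Hardly any SINE peak was found again in a second library. A peak of another library overlapped 1 of 6 SINE peaks in P5 replicate 2, 0 of 59 in P5 replicate 3, 1 of 448 in P3 replicate 4 and 0 of 34 in P3 replicate 5, by at least 1 bp. Over all peaks of these lists the shares that overlapped were 3.5, 0.749, 0.231 and 2.33%, a low overlap throughout. The mean difference from the other peaks was 2.59 ± 7.39 percentage points (p = 1, exact sign-flip permutation test over the 4 libraries). It was negative in 3 of 4 libraries and rests on the 1 peak of P5 replicate 2, without which library it was -1.07. For the libraries with none, the exact interval reached up to 6.06% in P5 replicate 3 and 10.3% in P3 replicate 5. No place was called as a SINE peak in more than 1 library. The B3 peak near 1700026F02Rik in P5 replicate 2 (chr8:71131428-71131592, score 5.65, 35 tags) overlapped a peak of P5 replicate 3 with 5.71 (39 tags) by 75 bases. The ID_B1 peak near Sox5, a transcription factor gene of neural development, in P3 replicate 4 (3.08, 17 tags) overlapped a peak of P3 replicate 5 (3.2, 21 tags) by 10 bases. When an overlap of 50% of the shorter peak was asked for, no SINE peak was shared.

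The pooled lists repeated single-library calls unevenly. Of the 113 SINE peaks of the P3 pooled list 28 (24.8%) overlapped a peak of P3 replicate 4 and 1 overlapped a peak of P3 replicate 5, while of the 18 of the P5 pooled list 4 overlapped P5 replicate 3 and 0 overlapped P5 replicate 2. Conversely, 25 of the 448 SINE peaks of P3 replicate 4 (5.58%) overlapped the P3 pooled list, where 9.54% of its other peaks did. The pooled peaks near Klf6, Prss55, Chac1, Tmem87b and Cdh11 were all called in P3 replicate 4 as well, with 36, 34, 28, 36 and 32 tags there, and none of them in P3 replicate 5. The peaks near Med30 and Scn2a1, the highest SINE peaks of the P3 pooled list, overlapped no peak of either P3 library. Likewise the Btrc and Taf4b peaks of the P5 pooled list overlapped no peak of either P5 library. Broad regions of the same library covered 3 of 6 and 11 of 59 SINE peaks (18.6%) at P5, against 114 of 448 (25.4%) and 5 of 34 (14.7%) at P3, and covered 32.0 and 27.4% of the other peaks at P5 and 32.5 and 34.5% at P3.

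SINE peaks lay nearer to genes in 3 of the 4 libraries. The median distance to the nearest TSS was 100.3 and 33.2 kb in P5 replicates 2 and 3 and 36.0 and 32.7 kb in P3 replicates 4 and 5, where the other peaks had 69.5, 69.1, 73.0 and 71.9 kb. The mean difference was -20.3 ± 34.1 kb (p = 0.25, exact sign-flip permutation test, 4 libraries). Without P5 replicate 2, whose 6 peaks run the other way, it was -37.3 kb. The comparison was added after the data were seen. In the same 3 libraries peaks in LINE elements lay farther out, at 110, 107 and 114 kb. By family, over the 6 lists, the median was 30.1 kb for B1, 33.7 kb for B2, 36.6 kb for B4 and 58.8 kb for MIR.

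Introns held 16.7 and 47.5% of the SINE peaks in P5 replicates 2 and 3 and 54.9 and 38.2% in P3 replicates 4 and 5. Of the other intergenic and intronic peaks 37.0, 39.0, 38.8 and 37.4% were intronic. The difference was 1.29 ± 15.7 percentage points (p = 0.875, exact sign-flip permutation test), positive in 3 of 4 libraries, and it became negative without P5 replicate 3 or P3 replicate 4. Between the ages the intron share differed by -14.5 points (p = 0.667, exact permutation test), and by 0.88 points without P5 replicate 2.

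The 653 places had 626 different nearest genes. A gene was nearest to 2 places in 27 cases and to 3 in none, and 8 genes had SINE peaks at both ages at different places. Cdh11 and Fat1, both cadherin genes, had 2 places each, all at P3. No SINE peak had a core clock gene or a semaphorin or its receptor as nearest gene, where 0.093% and 0.211% of all peaks did, so that hardly any would be seen among 678 at those shares. Cadherins and protocadherins were nearest to 10 SINE peaks of 7 genes (1.47%, against 1.64% of all peaks). Among them was a PB1D10 peak 14.1 kb upstream of the TSS of Celsr2, an atypical cadherin of planar polarity, in P3 replicate 4 (5.08, 28 tags). This peak lay in an intron of a transcript that does not begin at the Celsr2 TSS.

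Genes of axon guidance had 3 SINE peaks (0.442%, against 1.1% of all peaks), near the ephrin receptor genes Epha2, Epha3 and Epha5, all of P3 replicate 4 at 15 to 20 tags. Angiogenesis genes had 4 (0.59%, against 0.403%). They were nearest to Angpt1, the ligand of the endothelial receptor TIE2 (a B1F1 peak in intron 3 of 8, 4.17, 23 tags, P3 replicate 4), Epas1, the hypoxia-inducible factor HIF-2α (a B4 peak 116 kb upstream of its TSS, 3.52, 24 tags, P5 replicate 3), Flt1, a receptor for VEGF (a B1F2 peak in intron 14 of 29, 2.9, 16 tags, P3 replicate 4), and Esm1, an endothelial proteoglycan (a B3 peak, 2.07, 25 tags, P3 pooled). The Epas1 peak lay in intron 14 of 14 of a transcript that does not begin at the Epas1 TSS. The Angpt1 peak overlapped a P3 pooled peak of 36 tags whose centre lay outside the SINE. Of the retinal transcription factors Mitf, which directs pigment epithelium, had a MIRb peak in intron 1 of 9 in P3 replicate 4 with 17 tags and 3 flexible E-boxes, the single one among 65 peaks of that list (0.403% of all peaks). Olfactory and vomeronasal receptor genes, which act in the sensory cells of the nose, were nearest to 6 SINE peaks (0.885%, against 2.21% of all peaks).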

How the data were processed

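Bmal1 ChIP-seq of mouse retina was taken as deposited, as lists of peaks for 2 libraries at P5, 2 at P3 and each age pooled, called against 1 input. Per the labels, the authors used bcl2fastq, Trim Galore, Bowtie and MACS2 with the builds GRCm38 (mm10) and hg38, and per the file headers the lists were annotated with HOMER for mm10. For versions, calling thresholds and reads that map to several places, the sources used here give nothing. The deposited peak score is in tags per 10000000, a normalization by the authors, and the deposited focus ratio is a fraction. Score steps, fitted within 0.0052, gave between 55200000 and 68300000 tags a library, and the lowest peak rested on 12 tags. The deposited distance to the TSS is another annotation, in base pairs. A list of all 4 libraries pooled was left out.

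Sequences were read from GRCm38. Words of 31 and 16 bases were counted on both strands, and peaks were aligned with BLAST 2.17.0 (word size 7, e-value limit 0.001) to Rn7s1 and Bc1 of GENCODE and RefSeq tRNA genes. Libraries were compared with exact two-sided permutation tests, 7 between the ages and 8 within libraries, and with this few libraries such tests cannot pass 0.05. Adjusted by Benjamini-Hochberg within each family, the exact p was 0.667 for all 7 and between 0.5 and 1 for the 8. The functions were tested on simulated data. Named peaks are the 3 highest of each family in each pooled list and of each library, those overlapping a SINE peak of another library (none), 4 with CACGTG and 3 for each gene list. Other genes were chosen after their values were seen. Members, gene lists and tests were chosen with earlier results of these data known. Alternatives were leaving out each library, the upper 50% of the scores, pooled and broad lists, single-copy peaks, other comparison peaks, other E-box forms and other overlaps. Calculations used Python 3.11.15, numpy 2.4.6, pandas 2.3.3 and scipy 1.17.1.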

Additional observations from a re-analysis of the deposited data

Results flagged for a closer look

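The single-copy share of SINE peaks minus that of the other peaks was negative in both P5 libraries and positive in both P3 libraries. SINE peaks were single-copy in 83.3 and 96.6% in P5 replicates 2 and 3, where the other peaks had 96.9 and 98.5%, and in 98.7 and 100% in P3 replicates 4 and 5, where the other peaks had 98.6 and 97.7%. The mean difference at P5 minus that at P3 was -8.90 percentage points, and this was not tested. The P5 values rest on 3 SINE peaks that are not single-copy, 1 in replicate 2 and 2 in replicate 3, and the difference in P3 replicate 4 was 0.013 points.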

How the results depend on the processing

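No paired analysis was possible because the P5 libraries are numbered 2 and 3 and the P3 libraries 4 and 5, so no number is shared. The exact permutation tests used could not pass the threshold at these numbers of libraries, so directions were followed. GC content and flexible E-box share of SINE peaks above the other peaks kept their direction under every alternative run. For the B2 E-box surplus the only alternatives run were leaving out each of its 3 libraries, and it kept its direction in these. In the P5 pooled list, which was not among them, 0 of 2 B2 peaks held a flexible E-box, against 6 of 18 SINE peaks. With each library left out in turn, the GC difference, the E-box difference and the B2 surplus ranged from 4.17 to 5.4, from 9.83 to 11.4 and from 17.3 to 19.8 percentage points. Of 123 alternatives 94 kept the direction, 28 reversed it and 1 came to 0.

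Leaving out libraries gave -1.15 to 0.27 points for the SINE share between the ages, -11.0 to 2.32 for the B4 share and -29.9 to 0.88 for the intron share. Within libraries it gave -0.103 to 0 for the median score, -5.15 to 0.14 for the single-copy share, -3.64 to 8.49 for the intron share and -1.07 to 4.26 for the overlap with another library. The distance to the TSS ranged from -37.3 to -14.0 kb, and the B1, B2, MIR and E-box shares between the ages from 1.92 to 13, -9.92 to -6.82, 2.06 to 4.04 and 0.82 to 11.1.

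Among peaks in the upper 50% of the scores the age differences turned to -5.46 for B1, 7.79 for B2, 4.52 for B4, -7.51 for MIR and -1.25 for the E-box share, and the within-library differences to 0.28 for the median score, 1.26 for the single-copy share and -7.99 for the intron share. The pooled lists turned the SINE share to 0.59, B4 to 6.78, MIR to -14.2, the E-box share to -9.14 and the intron share to 22.4. The broad lists turned B4 to 3.13, the E-box share to -2.51 and the intron share to 3.41. Single-copy peaks alone turned B1 to -0.12, any CANNTG hexamer turned the E-box share between the ages to -0.53, peaks with no repeat as the comparison turned the intron share to -2.03, and an overlap of 50% turned the overlap with another library to -1.25. The cause was not tested. The 6 SINE peaks of P5 replicate 2 limit every comparison of the ages.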
